A study of Gallus gallus with 2 samples.

Results

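Nonneural ectoderm-2 is a class of 609 cells among 7750 from chicken embryos at stage HH5, a gastrula stage. Its members were all cells that the authors' cluster name column calls nonneural ectoderm-2, which is 7.86% of all cells (exact 95% interval 7.27 to 8.48%) and 24.5% of the cells of the neural and nonneural ectoderm classes together. The cells came from a single preparation of dissociated whole embryos, for which the labels name no genotype and no treatment. The 10x Multiome assay read RNA and accessible chromatin (ATAC) in each cell and gave 1 RNA and 1 ATAC library. How many embryos were pooled, and how old they were in hours, is not given in the sources used here.

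Nonneural ectoderm is the part of the surface sheet of the embryo that lies outside the neural plate. It gives rise to the epidermis, and the strip where it meets the neural plate is the source of neural crest and sensory placodes. BMP signalling is known to favour this fate over a neural one, and the transcription factors DLX5, TFAP2A and GATA2 are among its usual markers. During gastrulation, cells of the upper layer move to the primitive streak and pass through it to form mesoderm and endoderm, and the cells that stay behind form the ectoderm.

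The table used here holds no gene values. The class name was therefore not checked against DLX5, TFAP2A or GATA2, and neural markers in these cells were not examined. What the table gives for each cell is its class, a pair of coordinates in a joint map of RNA and ATAC similarity (wnnUMAP_1 and wnnUMAP_2, called the first and the second coordinate here) and an ATAC rank. The rank runs from 1 to 6681 over the ranked cells, and all 609 nonneural ectoderm-2 cells have one. The labels name the antero-posterior axis, but neither the quantity ranked nor the end of the rank that is anterior is given in the sources used here. Neither the coordinates nor the rank has a unit, and distance in the map is not distance in the embryo. The map and the rank draw on the same ATAC profiles, and the class names may too. A relation between rank and map may therefore be in part built in. Cells of 1 preparation are not replicates, so all values below describe these cells and no test between classes was made. The comparison made throughout was with the 668 cells of neural ectoderm-2, whose median rank is close.

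Nonneural ectoderm-2 occupied the low part of the rank without reaching its very end. The lowest cell had rank 279 and the highest 5393, with a median of 2102 (95% interval 2026 to 2197) and quartiles of 1528 and 2560. Below the middle rank of 3341 lay 578 of the 609 cells, or 94.9%. When the rank was cut into 10 nearly equal bins, the fourth bin, ranks 2005 to 2672, held 34.8% of the class, and nonneural ectoderm-2 supplied 31.7% of that bin (exact 95% interval 28.2 to 35.4%). The first bin held 21 of its cells and the last bin none, which allows up to 0.493% of the class. For comparison, nonneural ectoderm-2 made up 9.12% of all ranked cells. The distance between its quartiles was 1032 ranks, with thin tails to either side. That was wider than in neural ectoderm-1 (760) and narrower than in nonneural ectoderm-1 (1615).

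Neural ectoderm-2 was chosen for comparison because of its similar median rank, so the likeness in level is not a finding. Its middle was wider. Its median was 2075.5 (95% interval 2000 to 2163), and a nonneural ectoderm-2 cell ranked above a neural ectoderm-2 cell in 49.8% of all pairs, where 50% means no difference in level. The distance between its quartiles was 1206 ranks, against 1032 in nonneural ectoderm-2. Neural ectoderm-2 placed 27.4% of its cells in the fourth bin and 20.5% in the fifth, where nonneural ectoderm-2 placed 15.3%. Its standard deviation of 821 was close to the 795 of nonneural ectoderm-2, so the difference lay in the middle of the distributions and not in the overall spread.

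**Figure D1:**
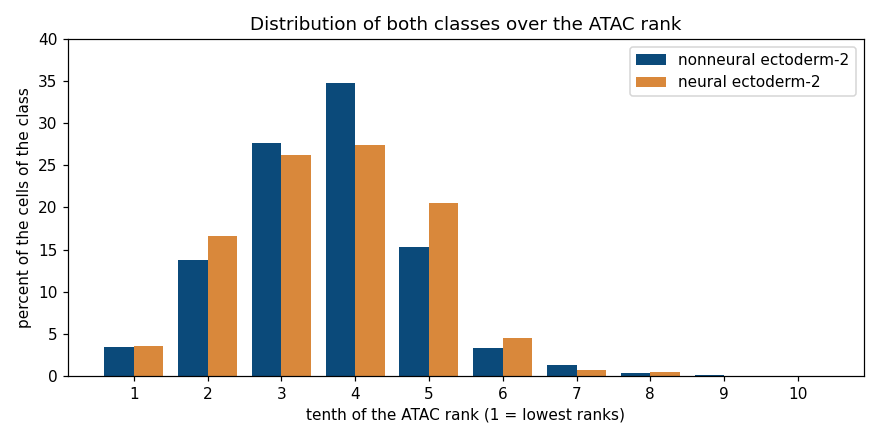
Share of each class (vertical axis, percent of its cells) in the 10 bins of the ATAC rank (horizontal axis, lowest ranks first), for the 609 nonneural ectoderm-2 cells in blue and the 668 neural ectoderm-2 cells in orange. Nonneural ectoderm-2 peaks in bin 4 at 34.8%, and neural ectoderm-2 has 27.4% there and a larger share, 20.5%, in bin 5.

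Inside nonneural ectoderm-2 the rank rose mainly along the second coordinate. Spearman's rho across the 609 cells was 0.75 with the second coordinate and 0.29 with the first. The coordinates were themselves weakly related in these cells (rho 0.23). With the other coordinate held fixed, the partial rho was 0.73 for the second coordinate and 0.19 for the first. A plane through the ranks accounted for 48.0% of their variance, of which the second coordinate alone accounted for 45.6%. The direction of steepest rise stood 67.0 degrees from the first axis, that is, mostly up the map and leaning towards higher values of the first coordinate.

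The rise in median rank was graded along the whole length of the class. The cells were divided into 6 nearly equal groups by the second coordinate. From the lowest to the highest group, the median ranks were 1196, 1567.5, 2022, 2245.5, 2515 and 2760. The quartile ranges of neighbouring groups overlapped. The quartiles were 854 and 1464 in the first of these groups and 1332.5 and 1882.5 in the next. The last group had quartiles of 2517.5 and 3148.75, so the quartile ranges of both ends were far apart. The Spearman correlation was still 0.57 within the 305 cells of the lower part of the class and 0.51 within the 304 of the upper part, so the relation did not rest on a single step at the middle.

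**Figure D2:**
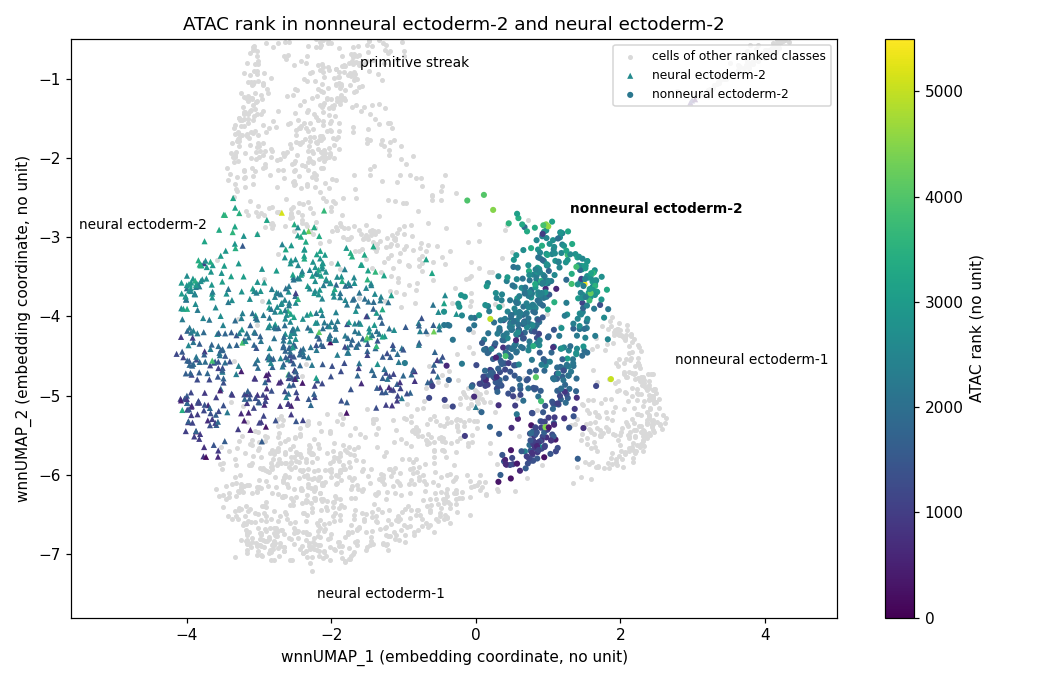
Part of the authors' map, with wnnUMAP_1 and wnnUMAP_2 as axes (no unit). Circles are nonneural ectoderm-2 cells and triangles neural ectoderm-2 cells, coloured by ATAC rank, and grey points are ranked cells of other classes. In both coloured classes the ranks go from low at the bottom to high at the top (rho with wnnUMAP_2 of 0.75 and 0.78). The 2 nonneural ectoderm-2 cells that lie among mesoderm are outside the area shown.

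Neural ectoderm-2 showed a gradient of like strength along the second coordinate and almost none along the first. Its rho was 0.78 with the second coordinate and 0.07 with the first, and the partial values were 0.78 and -0.04. The plane accounted for 45.2% of its rank variance, with the steepest rise 95.6 degrees from the first axis. The sign of the weak partial relation with the first coordinate was thus positive in nonneural ectoderm-2 and negative in neural ectoderm-2, but the neural value is close to 0. The classes lie beside each other on the map, at median first coordinates of 0.84 and -2.59, and share nearly the same span of the second coordinate, with medians of -4.17 and -4.24.

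That shared span allowed the classes to be read at matched positions, in bins of 0.5 units of the second coordinate. At the low end nonneural ectoderm-2 ranked higher. Between -5.5 and -5 its 59 cells had a median of 1342, with quartiles of 1039.5 and 1702. The 80 neural ectoderm-2 cells had a median of 1105, with quartiles of 928.25 and 1426.75. The nonneural cell was the higher one in 61.3% of pairs there. Near -4 the classes met, with medians of 2100.5 and 2044 between -4.5 and -4, and 51.5% of pairs with the nonneural cell higher. Above that the order turned. Between -3.5 and -3 the 79 nonneural ectoderm-2 cells had a median of 2674, with quartiles of 2497 and 2915. The 74 neural ectoderm-2 cells had a median of 2990, with quartiles of 2815.25 and 3142.25. The nonneural cell was the higher one in 29.8% of those pairs.

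Over the 7 bins that held at least 10 cells of each class, the nonneural median was higher in the lowest 4 and lower in the highest 3. From the lowest bin up, the differences (nonneural minus neural) were 176, 237, 157.5, 56.5, -110, -316 and -82 ranks. The quartile ranges of both classes overlapped in all 7 bins. In a plane fitted to all cells, the rank rose by 606 per unit of the second coordinate in nonneural ectoderm-2 and by 639 in neural ectoderm-2. Without the 2 and 4 cells that lie among mesoderm, away from their class, the values were 672 and 850. The size of the difference in slope thus rests on leaving out those cells. The rule for leaving out took second coordinates above 0 alone. Neural ectoderm-2 cells displaced otherwise stayed in, such as 1 at a first coordinate of 2.97 and a second of -1.30, with rank 621. The near equality of the class medians therefore covered opposite differences at the low and the high end of the map. Whether the slopes differ could not be tested with 1 preparation.

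**Figure D3:**
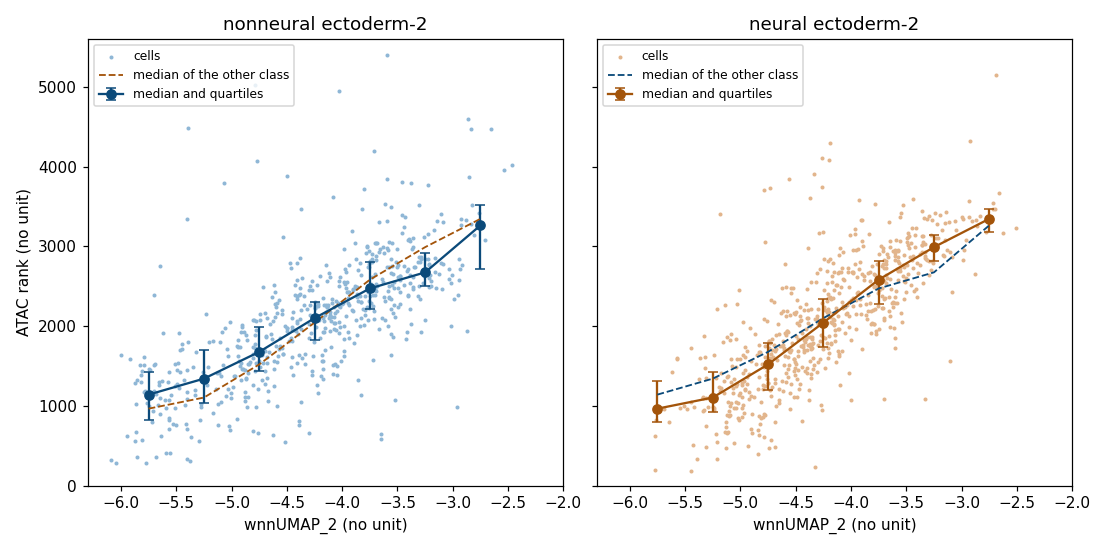
ATAC rank (vertical axis, no unit) against wnnUMAP_2 (horizontal axis, no unit) for nonneural ectoderm-2 (left) and neural ectoderm-2 (right). Points are cells, and circles with bars are the median and quartiles in bins of 0.5 units, with the other class's medians as a dashed line. The lines cross near -4: nonneural ectoderm-2 is higher by 237 ranks between -5.5 and -5 and lower between -3.5 and -3, by a difference of -316.

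The weaker relation with the first coordinate lay mainly on the side of nonneural ectoderm-2 that faces away from the neural classes. The 6 nearly equal groups by the first coordinate had medians of 1748, 2024, 2048, 2235, 2005 and 2669, so the last group stood above the other 5. That last group, 102 cells at first coordinates of 1.32 to 1.87, also lay higher on the second coordinate, at a median of -3.73. In 1 stretch of the map the class was sparse in its middle. Where the second coordinate was between -4 and -3.5, there were 31 cells at first coordinates of 0.8 to 1, then 5 and 5 in the next bins of 0.2, and 24 at 1.4 to 1.6.

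A line at a first coordinate of 1.1, set after the map had been seen, gave a right side of 167 cells and a left side of 442. At matched second coordinates the right side had the higher median rank in 5 of 5 bins that held at least 10 cells of each. Between -4 and -3.5 the 49 cells on the right had a median of 2744, with quartiles of 2403 and 2978. The 96 on the left had a median of 2387.5, with quartiles of 2156.75 and 2567.75. The differences of the medians (right minus left) were 85.5, 361, 340, 356.5 and 183.5 ranks from the lowest bin up. In the lowest of these bins, with 13 cells on the right, the pairs went the other way, with the right-hand cell higher in 46.0%. In the other bins it was higher in 67.8 to 76.8% of pairs. Between -3 and -2.5 the right side held 4 cells, so that bin was not compared. From -3 to 0, a cut at the class median of the first coordinate (0.84) gave the other order. The 12 cells above that cut had a median of 2804.5 and the 10 others 3378.5. The 10 also lay higher on the map, at a median second coordinate of -2.79 against -2.93. Among cells with no other class nearby, the right side was higher in 4 of 4 bins, by 183.5 to 388.5 ranks. The sides were not alike in their borders. Over all bins, cells beside nonneural ectoderm-1 made up like shares, 24.0% on the right and 25.1% on the left. But all 80 members beside neural ectoderm-1 lay on the left, and 0 on the right. Interior shares also differed within bins. Between -5 and -4.5, 28 of 31 cells on the right and 30 of 79 on the left bordered no other class. Between -4.5 and -4 these were 12 of 28 and 72 of 106.

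**Figure D4:**
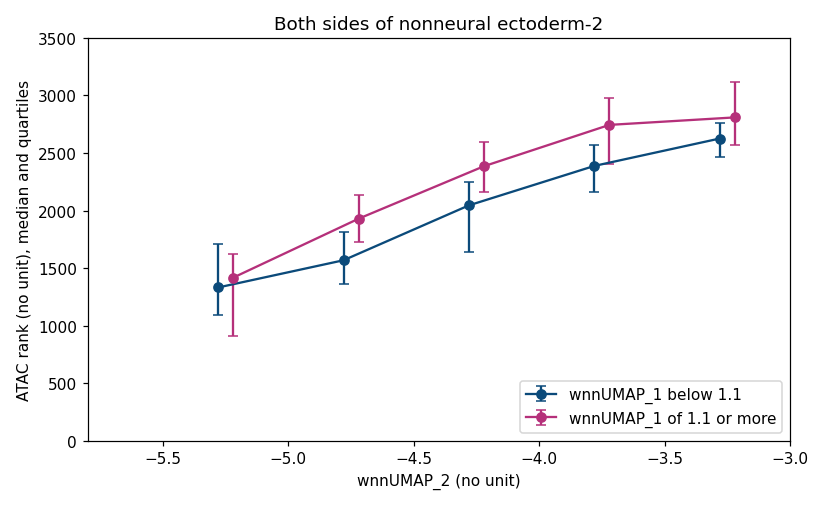
Median and quartiles of the ATAC rank (vertical axis, no unit) of nonneural ectoderm-2 cells in bins of 0.5 units of wnnUMAP_2 (horizontal axis, no unit). Cells with wnnUMAP_1 of 1.1 or more are in magenta and those below it in blue. The magenta medians lie above the blue ones in all 5 bins shown, by 85.5 to 361 ranks, with overlapping quartile bars.

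Cells close together on the map had more similar ranks than cells of the class at large. A nonneural ectoderm-2 cell differed from the nearest cell of its class by a median of 371 ranks, against 734 for all pairs of cells in the class. It differed from the median of its 15 nearest cells of the class by a median of 256 ranks in either direction. The values in neural ectoderm-2 were 392.5, 798 and 275.5. More than 1000 ranks above these nearby cells lay 21 nonneural ectoderm-2 cells (3.45%, exact 95% interval 2.15 to 5.22%), and more than 1000 below lay 12 (1.97%, 1.02 to 3.42%). In neural ectoderm-2 there were 25 above and 13 below. Of the 21 cells above, 9 had only cells of their own class nearby, as did 10 of the 12 below. Over the whole class this share was 62.2%. In neural ectoderm-2 it held for 15 of the 25 above and 6 of the 13 below, against 56.0% of that class. The split went the other way there and the counts are small, so no trait of high or low cells is read from it. The single highest cell, with rank 5393, had 15 of its 15 nearest cells in nonneural ectoderm-2, whereas the next, with rank 5016, had 1.

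Borders were read from the 15 nearest cells of each member on the map, among all 7750 cells. A member bordered another class if at least 1 of the 15 carried that class's name. Of the 609 members, 379 (62.2%) bordered no other class, 162 bordered 1 and 68 bordered more. Most of the class was thus interior with 15 nearest cells. This depends on that number: with 50 nearest cells, 339 of the 609 members bordered nonneural ectoderm-1, so most were then not interior. The median rank of the interior cells was 2248, with quartiles of 1819.5 and 2609. The 230 border cells had a median of 1696 (quartiles 1305.75 and 2432.5) and lay lower on the map, at a median second coordinate of -4.70 against -3.98. In neural ectoderm-2 the interior and border medians were 2051.5 and 2101.5, close to each other.

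Most of the border was with other ectoderm. Nonneural ectoderm-1, the other nonneural class, was nearby for 151 members (24.8%), and neural ectoderm-1 for 80 (13.1%). Mesoderm-3, a scattered class, was nearby for 49, neural ectoderm-2 for 22 (3.61%) and the primitive streak for 10. These sets overlap, and 27 members bordered both nonneural ectoderm-1 and neural ectoderm-1. Single members lay beside mesoderm-2 and mesoderm-5, 2 beside mesoderm-4 and 5 beside mesoderm-1, and those 5 all met the same mesoderm-1 cell. No member bordered the notochord, endoderm, mesoderm-6, blood islands, extraembryonic endoderm or area opaca, and each count of 0 allows up to 0.493% of members. Neural ectoderm-2 had 37 cells beside cells named notochord (5.54%) and 41 beside the streak (6.14%). The 37 met 16 notochord cells in all, so many of them shared the same neighbour. Their median first coordinate was -3.24, whereas many other notochord cells lay at positive first coordinates. As a set these contacts are therefore not read as a border with the main group of notochord cells. But 3 of the 37 lay at second coordinates of -3 to 0. A neural ectoderm-2 cell in that span, at a first coordinate of 2.97, lay close to notochord cells of the main group. Some contacts were thus with that group. Over nonneural ectoderm-2 as a whole, ectoderm was the most frequent neighbour. At the high end, at second coordinates of -3 to 0, it was mesoderm-3, which was nearby for 12 of 22 members (54.5%), against 3 of 22 each for nonneural ectoderm-1 and the streak.

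Towards its low end, part of nonneural ectoderm-2 met neural ectoderm-1, the ectoderm class with the lowest median rank. Below -5 on the second coordinate, 30.8% of members bordered neural ectoderm-1, fewer than the 46.2% that bordered nonneural ectoderm-1. The 80 members beside neural ectoderm-1 had ranks from 288 to 4489, with a median of 1442 and quartiles of 1078.25 and 1656.75. The median of the other 529 members was 2226, with quartiles of 1687 and 2628. Of the 80, 36 had a second coordinate below -5, 43 lay between -5 and -4, and 1 lay higher. The 79 neural ectoderm-1 cells on the other side had a median of 1019 (quartiles 659 and 1374). Read from the nonneural side, no step in either direction was seen at the contact itself. The contact was not read from the side of neural ectoderm-1. Each border member was compared with the neural ectoderm-1 cells among its own nearest cells, and the median difference was -16 ranks (quartiles -507.5 and 339.625), with 39 of the 80 members higher.

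The low ranks at this border went in part with position on the map. Below -5, where the border members and the others lay at similar second coordinates (medians -5.40 and -5.55), the medians were 1160.5 and 1267, and their quartile ranges overlapped. Between -5 and -4 the border members had a median of 1528 and the others 1990, but the border members also lay lower, at -4.76 against -4.40. The same border in neural ectoderm-2 gave like values. Its 72 cells beside neural ectoderm-1 differed from the neural ectoderm-1 cells near them by a median of -2.5 ranks, with 36 of the 72 higher.

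Members beside nonneural ectoderm-1 were found along the length of the class and took in low and high ranks. Their median first coordinate was 0.84, the same as that of the whole class. On the other side, 21 nonneural ectoderm-1 cells had most of their nearest cells in nonneural ectoderm-2. This border is therefore not read as an edge between separate groups of cells. The 151 members beside nonneural ectoderm-1 ranged from 279 to 5016, with a median of 1778 and quartiles of 1334.5 and 2468. The median of the other 458 members was 2168, with quartiles of 1644.25 and 2590.25. When at least 3 of the 15 nearest cells had to be nonneural ectoderm-1, 30 members remained and their median was 2222.5, above and no longer below that of the others. Within this border the rank again followed the second coordinate, with rho = 0.75 across the 151 cells and -0.01 with the first. Border members made up 46.2% of the members below -5, 25.4% of those between -5 and -4 and 14.3% of those between -4 and -3. Within these divisions the border members differed from the others by 87, 22 and 181 ranks, with higher medians at the border each time and overlapping quartile ranges. In the lowest division the border member was nevertheless the higher one in 46.2% of pairs. The lower median over the whole border was thus not seen within divisions of the map.

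As a class, nonneural ectoderm-1 ranked higher than nonneural ectoderm-2 at the same second coordinate over the middle of the map. Between -5 and -4 the 106 nonneural ectoderm-1 cells had a median of 2541.5, with quartiles of 2090.5 and 2972.75. The 244 nonneural ectoderm-2 cells had a median of 1932.5, with quartiles of 1548.25 and 2235.5. A nonneural ectoderm-2 cell was the higher one in 21.1% of those pairs, and in 20.4% when nonneural ectoderm-1 was limited to its cells with a first coordinate above 0, the part beside nonneural ectoderm-2. Below -5 the medians were closer, at 1215 and 1284.5, respectively, for nonneural ectoderm-2 cells and nonneural ectoderm-1 cells. In the same order they were 2546.5 and 2844 between -4 and -3 (36.9% of pairs with the nonneural ectoderm-2 cell higher). From -3 to 0 they were 3269 and 3214 (48.5%). In the divisions above -4, too few nonneural ectoderm-1 cells had a first coordinate above 0 for that part to be read alone. At the contact, members differed from the nonneural ectoderm-1 cells near them by a median of -85 ranks (quartiles -719.5 and 260.25), with 69 of 151 higher.

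Nonneural ectoderm-2 and neural ectoderm-2 had few contacts, mostly through cells at the fringe of nonneural ectoderm-2. There were 22 members on the nonneural side and 36 cells on the neural side. The nonneural members had ranks from 638 to 2840, with a median of 2143 (quartiles 1830.75 and 2481.75). The neural cells had a median of 1766 (quartiles 1497 and 2127.75). Read cell by cell, the direction depended on the side. Nonneural members ranked below the neural ectoderm-2 cells among their nearest by a median of -453.25 (quartiles -539.75 and 59), with 8 of 22 higher. Neural cells in turn ranked below the nonneural ectoderm-2 cells among their nearest by a median of -169 (quartiles -509 and 472.75), with 13 of 36 higher. No step in one direction was therefore seen among these contacts. The median of the 22 members was also close to that of the other 587 (2097).

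Contacts of nonneural ectoderm-2 with the primitive streak, the midline furrow through which cells ingress, were few. Its 10 members beside the streak ranged from 1177 to 4470, with a median of 2766.5 (quartiles 2384.25 and 3709.25), against 2097 for the other 599. These 10 were spread along the class. The members of rank 1177 and 1952 lay at second coordinates of -4.88 and -4.46, and only 3 of the 10 lay at -3 to 0. On the other side, 2 streak cells had at least 8 of their 15 nearest cells in nonneural ectoderm-2. The median of the 10 is therefore not read as that of a border with the main group of streak cells. The 10 members met 9 streak cells among their nearest and differed from them by a median of 161 ranks, with 6 of 10 higher. The 7 streak cells with nonneural ectoderm-2 among their own nearest had a higher median, 3711 (quartiles 3249.5 and 4234). The contact was not read cell by cell from the streak side, so no direction of a step is read from it. The 41 neural ectoderm-2 cells at this border ranked around a median of 3182, with quartiles of 2958 and 3367. The quartile range of the 10 nonneural members held that of the neural cells. The median interval of the 10 ran from 1952 to 4018 and covers counting error alone. No order of these medians is read. At second coordinates of -3 to 0, where the streak is nearest, 3 of 22 nonneural ectoderm-2 cells and 20 of 24 neural ectoderm-2 cells bordered it.

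**Figure D5:**
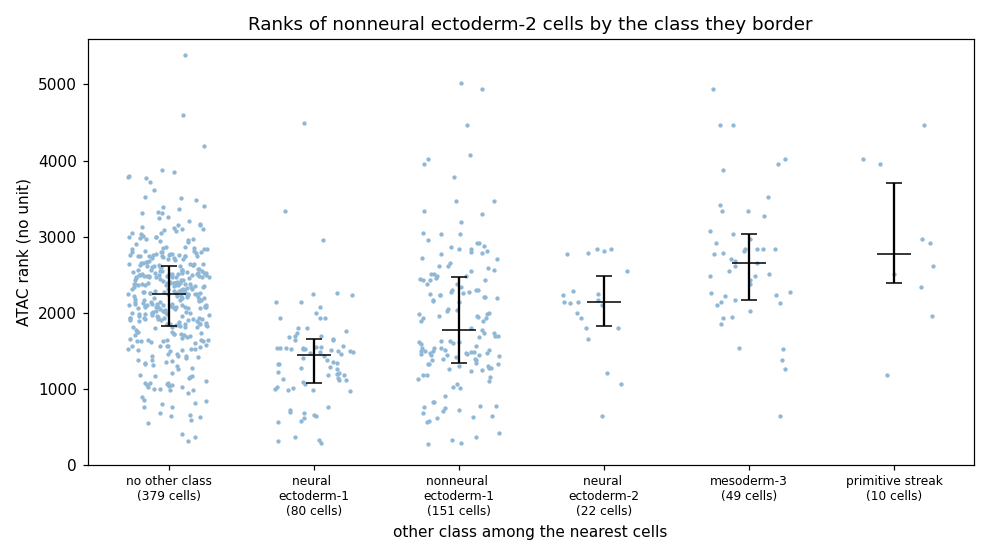
ATAC rank (vertical axis, no unit) of nonneural ectoderm-2 cells, by the other class found among their 15 nearest cells (horizontal axis). Points are cells, spread sideways for view, and bars are the median and quartiles. Medians go from 1442 beside neural ectoderm-1 to 2766.5 beside the primitive streak. The median is 2248 for the 379 cells that border no other class. A cell can appear under more than 1 class. The 10 cells beside the streak are spread along the class, with 3 of them at wnnUMAP_2 of -3 to 0.

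Some mesoderm-3 cells lay among nonneural ectoderm-2, with 9 having at least 8 of their 15 nearest cells in it. Whether the others lay at an edge of mesoderm was not measured. The 49 members beside mesoderm-3 had a median of 2657 (quartiles 2172 and 3038), but they met 15 mesoderm-3 cells in all, so many of them shared the same neighbour. Within divisions of the second coordinate, the members beside mesoderm-3 lay near the others between -5 and -4 (medians 2018.5 and 1930.5, 49.0% of pairs with the border member higher). The same held between -4 and -3 (2674 and 2529, 56.9%). Between -3 and 0 the 12 beside mesoderm-3 had a median of 3472 and the 10 others one of 2738.5. The border member was higher in 81.7% of those pairs. But the 12 also lay higher on the map, at a median second coordinate of -2.83 against -2.94. Across the 22 cells of that division the rank rose with the second coordinate (rho 0.73). The 49 members beside mesoderm-3 ranked above the mesoderm-3 cells among their nearest by a median of 552 (quartiles -32 and 822), with 35 of 49 higher. Conversely, 41 cells of other classes had at least 8 of their 15 nearest cells in nonneural ectoderm-2. They were 21 of nonneural ectoderm-1, 9 of mesoderm-3, 7 of neural ectoderm-1, 2 of neural ectoderm-2 and 2 of the streak. The 9 mesoderm-3 cells had ranks from 1804 to 3021, with a median of 2354. They ranked below the nonneural ectoderm-2 cells around them by a median of -551, with 2 of 9 above. Doublets were not called here, and their part in these cells was not tested.

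A small number of members lay apart from the class. By second coordinates above 0 there were 2, with ranks of 3134 and 4289. The first had 15 of 15 nearest cells in mesoderm-5 and the second 15 of 15 in mesoderm-2. Neural ectoderm-2 had 4 cells at second coordinates above 0, a rule that does not count cells displaced along the first coordinate. In all, 37 nonneural ectoderm-2 cells had under 8 same-class cells among their nearest 15, and on average 91.1% of the nearest cells of a member shared its class, against 89.5% in neural ectoderm-2.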

How the data were processed

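RNA and ATAC were read from the same cells of 1 HH5 preparation, and 1 deposited table with a row per cell was analysed. Per the file headers, it holds map coordinates, a cluster name and an ATAC rank, all taken as scores deposited by the authors without a unit. Per the submitters' processing notes, the build was galGal6 and the tools included Signac 1.8.0, Seurat 4.3.0 and Cell Ranger ARC 2.0.0. The sources used here do not give settings, cell filters, doublet treatment, the naming of classes or the method of ranking. Ranks were checked to be whole numbers from 1 to 6681, each used once, and barcodes to be unique. Depth per cell is unknown.

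Medians carry order-statistic 95% binomial intervals and shares exact (Clopper-Pearson) ones. Both cover counting error alone, as do the limits set for counts of 0, which are 3 counts over the number of cells. Nearest cells were found by Euclidean distance on the map. Borders with at least 10 cells were summarised. The functions were tested on simulated data. Alternatives were means, Pearson correlation, 5 or 50 nearest cells, at least 3 of 15 nearest cells for a border, coordinates without 5% of cells at each end, and keeping only cells with 8 or more of 15 nearest cells in the same class. Leaving out cells lying away from their class was added after seeing the data. The rule for what is named was every class that borders nonneural ectoderm-2, and no gene, since the table holds no gene values. Lists of marker genes were not used. The class, divisions and comparisons were chosen with earlier results of these data known. Python 3.11.15, NumPy 2.4.6, pandas 2.3.3, SciPy 1.17.1, scikit-learn 1.9.0 and Matplotlib 3.10.9 were used.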

Additional observations from a re-analysis of the deposited data

How the results depend on the processing

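Of 43 alternative values, 38 stayed close to those reported (medians within their binomial intervals, correlations within 0.1). All 6 for the class medians and all 8 for the correlations in nonneural ectoderm-2 did. Some border medians counted as close rest on fewer than 10 cells and say little about stability. Keeping only cells with 8 or more of 15 nearest cells in their class left 5 beside neural ectoderm-2 and 6 beside the primitive streak. Using 5 nearest cells left 6 beside the streak. Without cells that had fewer than 8 of 15 nearest cells in their class, a nonneural ectoderm-2 cell ranked above a neural ectoderm-2 cell in 50.9% of pairs in place of 49.8%, which crosses 50%, so no order of these classes rests on it. Pearson's correlation with the second coordinate in neural ectoderm-2 was 0.67 in place of 0.78. Requiring 3 of 15 nearest cells moved 3 border medians, to 3076 beside mesoderm-3 (11 cells), 1215 beside neural ectoderm-1 (23 cells) and 2222.5 beside nonneural ectoderm-1 (30 cells, from 1778). Beside the primitive streak it left 2 cells, with a median of 3986.5 in place of 2766.5, which counts as close only because the interval of the 10 cells is wide (1952 to 4018). The value beside nonneural ectoderm-1 is above the median of the members not beside nonneural ectoderm-1 (2168), so the side on which that border lies depends on this choice. The cause was not tested. No paired analysis was possible because there was 1 preparation, with no sample groups to pair. RNA and ATAC depth per cell were not analysed here, so their relation to the rank is not known.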
